A study of Mus musculus with 8 samples.

Results

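The potassium channel genes of mouse skeletal muscle were described in its fibres, its stem cells and its vessel lining. Members were all rows of the deposited gene table whose symbol is Kcn followed by letters and a number, which gave 86 genes of the 36048 in the table. The antisense transcript Kcnq1ot1 was not a member. Each gene was read in 3 libraries of single muscle fibres (SMF) of the extensor digitorum longus (EDL), in 2 libraries of satellite cells (SC, the muscle stem cells, replicates 1 and 3) and in 3 libraries of endothelial cells (EC). A fibre library held 100 fibres that had rested for 3 h and were picked by hand, while SC and EC libraries each held about 100000 cells sorted from hindlimb muscles. The muscle of origin and the way of isolation therefore differed together with the population. The sources used here give no strain, genotype, age or sorting markers, and no group carried a treatment in its labels. No label ties the libraries of a group to different animals, and p-values therefore cover only the spread among these libraries, which may be technical.

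Potassium channels let potassium ions leave or enter a cell along their gradient and so set the resting potential and end action potentials. Voltage-gated channels open on depolarisation, and silent voltage-gated subunits conduct only in complexes with other voltage-gated subunits. Inward rectifiers pass current near the resting potential and include the pores of the ATP-sensitive channels, which also need a sulfonylurea receptor. Tandem-pore channels carry leak current, calcium- and sodium-activated channels couple these ions to the membrane potential, and auxiliary subunits modify the pores. In skeletal muscle these channels act beside a large chloride conductance and the sodium-potassium pump, which returns potassium to the fibre after activity.

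Markers fitted the labels, with a summed FPKM (fragments per kilobase, a level per length, relative to the whole library) of 8 fibre markers of 28181 to 30709 in SMF, 157 to 248 in SC and 10.7 to 18.2 in EC. The 8 satellite cell markers summed to 16.3 to 21.3 in SMF, 887 to 916 in SC and 9.87 to 22.8 in EC, and the 8 endothelial markers to 3.27 to 4.20 in SMF, 19.4 to 26.1 in SC and 1315 to 1392 in EC. Aligned sequence, the depth recovered from the coverage values, was 525 to 581 megabases in SMF, 278 to 313 in SC and 298 to 368 in EC. A gene of 1 kb with 1 fragment thus stood at 0.172 to 0.190 FPKM in SMF, 0.320 to 0.360 in SC and 0.272 to 0.336 in EC. Genes reached 1 FPKM in 7960 to 8116 cases in SMF, in 13294 and 16451 in SC and in 12640 to 14314 in EC. Tuba1b, a tubulin gene that most cells use, was itself listed at 0 in SMF replicate 3, so a 0 is given below only as a listed value.

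Of the 86 members, 22 reached 1 FPKM in at least 2 libraries and were tested, and 64 did not. The summed FPKM of all members was 84.2 ± 2.35 in SMF (SD, n = 3), 51.1 ± 11.7 in SC (SD, n = 2) and 96.7 ± 19.6 in EC (SD, n = 3). After scaling by the median of gene ratios the sums were 159 in SMF, 31.6 in SC and 67.9 in EC, so whether SMF or EC stood higher depended on the scaling. Which classes made up the sum did not depend on it, since a scaling of whole libraries leaves shares as they are. Voltage-gated channels held 52.8% of the sum in SMF, 20.1% in SC and 56.2% in EC. Inward rectifiers held 32.6% in SMF, 14.5% in SC and 25.3% in EC. These are means, and the inward rectifier share was 31.5%, 14.2% and 30.1% in EC replicates 1, 2 and 3. The voltage-gated share was 50.3%, 69.3% and 48.9% there, and 15.5% and 24.7% in SC replicates 1 and 3. Calcium- and sodium-activated channels held 6.51% in SMF, 26.3% in SC and 1.37% in EC. Auxiliary subunits held 0.668% in SMF, 17.8% in SC and 8.10% in EC. Members that did not pass the filter summed to 13.3 of 42.8 FPKM in SC replicate 1 and 30.0 of 59.3 in SC replicate 3. They summed to 4.14 to 4.59 FPKM in SMF and 6.02 to 11.0 in EC, so the SC shares rest far more on low values. In the deposited TPM values, calcium- and sodium-activated channels held 8.32% in SMF, 36.6% in SC and 2.72% in EC. The voltage-gated share of SMF and EC rested on different genes, with Kcna7 alone at 23.2% of the SMF sum and Kcna5 alone at 40.8% of the EC sum. No member stood out as far in SC, where the gene with the highest mean, Kcnma1, held 11.8%.

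**Figure D1:**
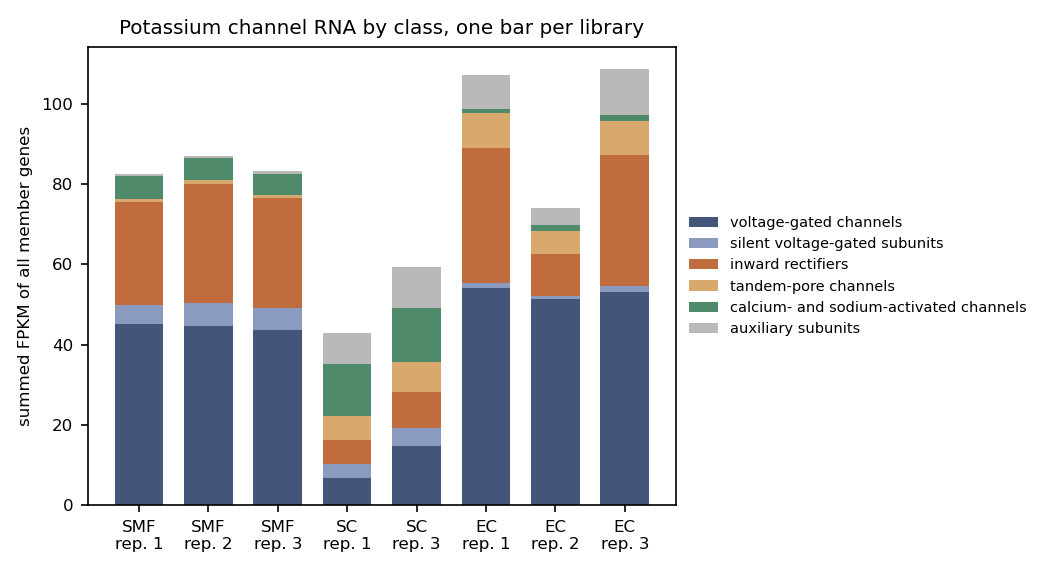
Stacked bars give the summed FPKM of all 86 potassium channel genes by class, with 1 bar for each SMF, SC and EC library (rep., replicate). SMF and EC bars are mostly voltage-gated channels and inward rectifiers, while SC bars hold a larger part of calcium- and sodium-activated channels and auxiliary subunits.

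Differences between populations were tested with limma on log2(FPKM + 1) over 16700 genes and a p under 0.05 after Benjamini-Hochberg adjustment made a call. All adjusted p-values below come from this fit. Between SMF and SC, 9 of the 22 members were higher in SMF and 6 were lower, where 8.57% of all tested genes were higher, 56.5% lower and 65.1% either. Between SMF and EC, 9 members were higher in SMF and 9 were lower, where 10.8% of all genes were higher, 55.5% lower and 66.3% either. Between SC and EC, 5 members were higher in SC and 7 were lower, where 21.2% of all genes were higher, 16.4% lower and 37.7% either. These counts are descriptions, because a member at 1 FPKM in a single population passed the filter through that population and so had to differ. Kcna7, Kcnc1, Kcnc4, Kcng4, Kcnj11, Kcnj12 and Kcnq5 passed through SMF alone. Kcna5, Kcne3, Kcnj15, Kcnk6 and Kcnq1 passed through EC alone, and Kcnn3 and Kcnt2 through SC alone. The adjusted p-values given below for these members are descriptions as well. After median-of-ratios scaling 12 members were higher and 5 lower for SMF against SC, where 25.6% of all genes were higher and 26.8% lower, and 12 and 7 for SMF against EC, where 28.5% were higher and 32.1% lower. After upper-quartile scaling 7 were higher and 6 lower for SC against EC, where 23.3% of all genes were higher and 11.3% lower. The median difference of the 22 members was -0.30 on the log2 scale for SMF against SC, -0.30 for SMF against EC and 0.02 for SC against EC. Over all tested genes these medians were -0.93, -0.85 and 0.11, a shift against which each difference below can be read. Median-of-ratios scaling brought the all-gene medians to -0.12, -0.09 and -0.01.

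**Figure D2:**
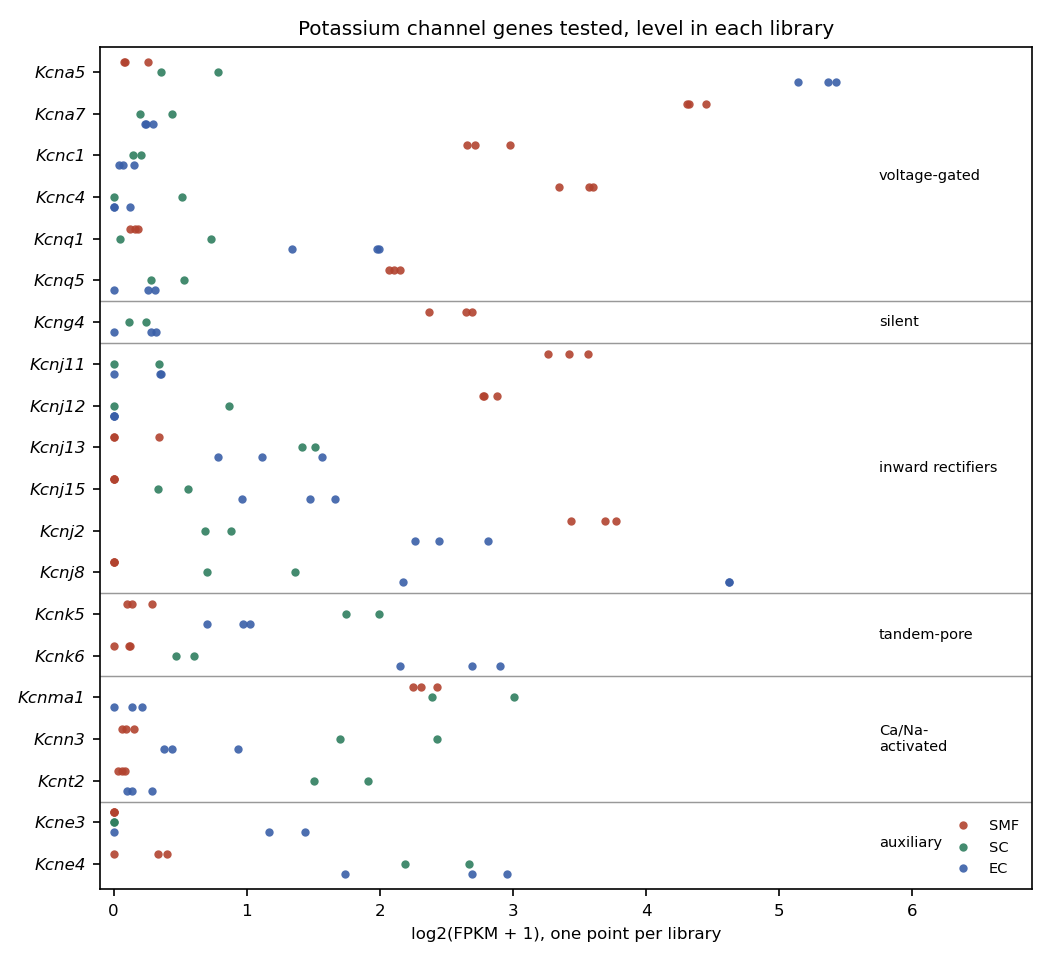
Each point is the log2(FPKM + 1) value of 1 of 20 tested potassium channel genes in 1 library, in rows by channel class and with SMF, SC and EC in separate colours. Kcna7, Kcnc1, Kcnc4, Kcng4, Kcnj11, Kcnj12 and Kcnq5 are high in the 3 SMF libraries and below 1 FPKM in all others, and Kcna5 is high in the 3 EC libraries.

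Members called higher in SMF than in both other populations numbered 8, namely Kcna7, Kcnc1, Kcnc4, Kcng4, Kcnj2, Kcnj11, Kcnj12 and Kcnq5, where 7.12% of all tested genes met the same rule. In bulk RNA, fewer cells of a type and less RNA per cell cannot be told apart. Kcna7 (chr7:45405960-45411382), a pore subunit of the Shaker family, was the most abundant member in SMF. It stood at 18.8, 20.9 and 19.0 FPKM in SMF, against 0.356 and 0.145 in SC and 0.179, 0.226 and 0.186 in EC. Every SMF library lay far above every other library. The log2 difference was 4.04 ± 0.14 (SE) for SMF against SC, with an adjusted p of 1.08e-06, and 4.10 ± 0.13 for SMF against EC, with an adjusted p of 1.83e-07. Its only listed transcript carried coverage worth about 382, 416 and 350 fragments of 100 bases in the SMF libraries, and the level rests on these.

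The Shaw-type subunits Kcnc4 and Kcnc1, which activate at strong depolarisation and close fast, followed the same pattern. Kcnc4 stood at 11.1, 9.18 and 10.9 FPKM in SMF, against 0 and 0.425 in SC and 0, 0 and 0.0907 in EC. The difference was 3.25 ± 0.19 for SMF against SC (adjusted p 7.09e-06) and 3.46 ± 0.17 for SMF against EC (adjusted p 1.32e-06). Kcnc1 stood at 6.88, 5.31 and 5.57 FPKM in SMF, against 0.104 and 0.155 in SC and 0.0517, 0.0298 and 0.111 in EC. Neither gene overlapped between SMF and the sorted cells.

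Kcnq5, a subunit of slow M-type currents, was present at 3.45, 3.31 and 3.21 FPKM in SMF, against 0.216 and 0.442 in SC and 0.199, 0 and 0.239 in EC. SMF was higher by 1.71 ± 0.17 than SC (adjusted p 8e-05) and by 1.92 ± 0.15 than EC (adjusted p 1.71e-05). The Kcnq5 gene spans the pseudogene Gm7658, which was listed at 4.62 to 5.88 FPKM in SMF, 13.5 and 14.4 in SC and 4.78 to 8.61 in EC. The part of Gm7658 reads in the Kcnq5 level was not tested. Kcng4, a silent subunit, was at 4.16, 5.45 and 5.28 FPKM in SMF, against 0.0831 and 0.183 in SC and 0.248, 0 and 0.218 in EC. Its difference was 2.39 ± 0.18 for SMF against SC (adjusted p 2.16e-05) and 2.37 ± 0.16 for SMF against EC (adjusted p 7.47e-06). Kcng4 was the only one of 10 silent subunit genes that passed the filter.

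Kcna5 (chr6:126532551-126535555), a Shaker-family channel known from heart and vessels, was the most abundant member of any population. It stood at 0.0578, 0.0607 and 0.195 FPKM in SMF, 0.720 and 0.283 in SC and 42.0, 34.3 and 40.2 in EC. The EC libraries lay far above all others. The difference was -5.17 ± 0.16 for SMF against EC (adjusted p 1.83e-07) and -4.74 ± 0.18 for SC against EC (adjusted p 1.57e-06). SMF and SC differed by -0.43 ± 0.18 (adjusted p 0.0647). That difference reached the threshold with 0.1 or 0.5 added to the FPKM in place of 1 (adjusted p 0.0136 and 0.0305). Without SC replicate 3, which leaves 1 SC library, it was -0.64. The single listed Kcna5 transcript carried about 382, 361 and 343 fragments in EC. Kcna5 and Kcna7, both of the Shaker family, were thus at opposite ends of the comparison between SMF and EC.

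Kcnq1, which forms slow delayed rectifiers with Kcne subunits, was listed at 0.0916, 0.137 and 0.119 FPKM in SMF, 0.0344 and 0.657 in SC and 2.93, 2.99 and 1.54 in EC. The difference was -1.61 ± 0.25 for SMF against EC (adjusted p 0.000676) and -1.38 ± 0.28 for SC against EC (adjusted p 0.00603). Its antisense transcript Kcnq1ot1 was listed at 1.55, 1.56 and 1.46 FPKM in SMF, 3.17 and 2.74 in SC and 1.79, 2.34 and 2.13 in EC. Another long noncoding RNA that overlaps Kcnq1, 4933417O13Rik, was listed at 0, 0.0588 and 0.0992 FPKM in SMF. It was at 0.126 and 0.927 in SC and at 0.484, 0.209 and 0.403 in EC. The sources used here do not say whether strand was used in counting, so reads of these genes cannot be told apart with certainty. The part of either transcript in the Kcnq1 level was not tested.

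**Figure D3:**
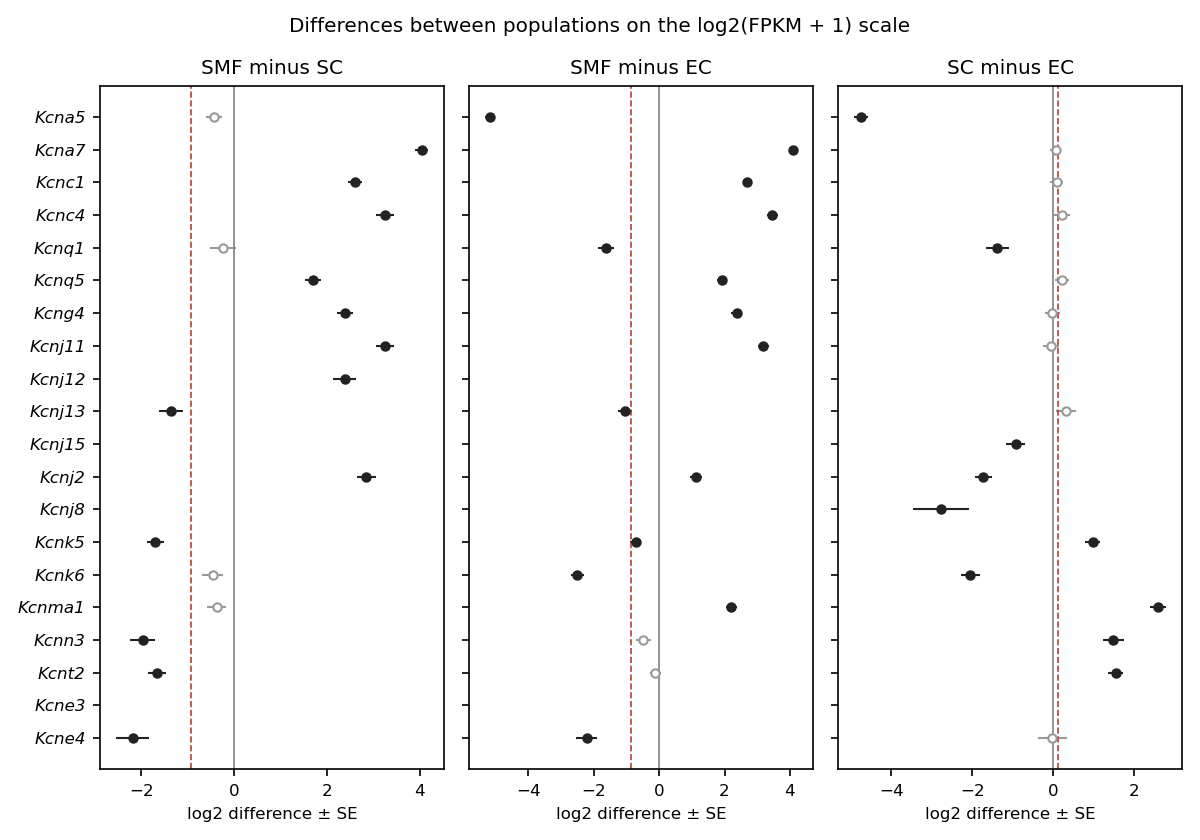
Points are the log2 difference of 20 tested potassium channel genes for SMF minus SC, SMF minus EC and SC minus EC, with bars of 1 SE. Filled points were called at an adjusted p under 0.05, dashed lines mark the median of all tested genes, and pairs in which a population is listed at 0 in every library are not drawn. Kcna7 lies above 4 in both SMF panels and Kcna5 below -4 in both EC panels.

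Among the 15 inward rectifiers, 6 were tested, of which Kcnj2, Kcnj11 and Kcnj12 were highest in SMF and Kcnj8 and Kcnj15 highest in EC. Kcnj2 (chr11:111066164-111076825), a strong rectifier that holds the resting potential in muscle and endothelium, was high in SMF and intermediate in EC. It stood at 9.82, 11.9 and 12.7 FPKM in SMF, 0.609 and 0.845 in SC and 6.02, 3.81 and 4.45 in EC. None of the populations overlapped. SMF was higher than SC by 2.85 ± 0.20 (adjusted p 1.6e-05) and higher than EC by 1.13 ± 0.18 (adjusted p 0.000835), and SC was lower than EC by a difference of -1.72 ± 0.20 (adjusted p 0.00042). Kcnj12, a strong rectifier of the same subfamily, was highest in SMF. It was listed at 5.89, 6.36 and 5.86 FPKM in SMF, 0 and 0.824 in SC and 0 in the 3 EC libraries. The SMF against SC difference was 2.38 ± 0.24 (adjusted p 8.96e-05), and the adjusted p of SMF against EC was 1.48e-05. Kcnj4, another strong rectifier, was listed at 0 in every library but SC replicate 3, at 0.32 FPKM.

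The transcript table gave Kcnj12 unlike starts between fibre libraries. In SMF replicates 1 and 3 its reads were assigned to a transcript that starts at position 61065804 of chromosome 11 on the plus strand, with 6.58 and 6.54 FPKM, and none to the transcript that starts upstream at 61022564. In SMF replicate 2 the upstream transcript had 7.53 FPKM and the other 0.106. The gene level was nearly the same in all 3 libraries. The share of each start was not tested, because both transcripts share most of their length and the table lists only some of the assembled transcripts.

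The pores of ATP-sensitive channels were split between populations. Kcnj11, the pore known from the muscle fibre and the pancreatic beta cell, stood at 9.73, 10.8 and 8.59 FPKM in SMF, against 0.270 and 0 in SC and 0.271, 0 and 0.281 in EC. Kcnj8, the pore known from vascular smooth muscle and pericytes, was listed at 0 in the 3 SMF libraries, at 1.57 and 0.623 FPKM in SC and at 23.7, 3.52 and 23.6 in EC. The levels of SMF and EC did not overlap for either gene, and they ran in opposite directions. Kcnj11 was higher in SMF by 3.24 ± 0.19 than in SC (adjusted p 7.39e-06) and by 3.18 ± 0.17 than in EC (adjusted p 2.14e-06). For Kcnj8 the adjusted p was 0.000902 between SMF and EC. It was 0.223 between SMF and SC, and ranged from 0.00422 (without EC replicate 2) to 0.92 over the 20 alternatives, with calls also at a pseudocount of 0.1 (adjusted p 0.00769) and in the 2-group fit (adjusted p 0.0116). SC was lower than EC by a difference of -2.78 ± 0.69 (adjusted p 0.0155). Abcc9, the sulfonylurea receptor gene of the muscle and vascular channels, was high in both, with 21.5, 22.7 and 22.2 FPKM in SMF, 1.01 and 1.08 in SC and 23.2, 3.44 and 25.5 in EC. Its difference was 3.50 ± 0.69 for SMF against SC (adjusted p 0.00271) and 0.71 ± 0.62 for SMF against EC (adjusted p 0.34). The SMF against EC value turned to -0.13 ± 0.12 (adjusted p 0.353) without EC replicate 2 and was 2.04 (adjusted p 0.0136) after median-of-ratios scaling. Abcc8, the receptor gene of the beta cell channel, was listed at 0.166 FPKM in SMF replicate 1 and at 0 in the other libraries. Each pore gene has a receptor gene as its neighbour, with 3570 bases between Kcnj11 and Abcc8 on chromosome 7 and 16247 bases between Kcnj8 and Abcc9 on chromosome 6, in the RefSeq annotation of GRCm38.p6.

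Kcnj8 and Abcc9 were both low in EC replicate 2, as were most markers of pericytes and smooth muscle, of fibro-adipogenic cells, of immune cells and of red cells. The mean of EC replicates 1 and 3 was 6.72 times the level of EC replicate 2 for Kcnj8 and 7.08 times for Abcc9. Of 8 pericyte and smooth muscle markers, 7 were lowest in EC replicate 2, with ratios of 7.05 for Higd1b, 4.73 for Notch3, 3.89 for Pdgfrb and 2.83 for Rgs5, and Tagln was the exception. Of the markers whose EC mean reached 1 FPKM, 6 of 7 fibro-adipogenic, 3 of 3 immune and 4 of 4 erythroid markers were also lowest there. Their ratios reached 16.9 for Dpt, 10.0 for Pdgfra and 7.43 for Col1a1 among the fibro-adipogenic genes, 8.10 for Cd68 and 6.67 for Lyz2 among the immune genes and 2.19 for Hba-a1 among the erythroid genes. The share of all genes that were lowest in EC replicate 2 was not counted, so these counts have no baseline. Genes reached 1 FPKM in 12640 cases there, and in 13925 and 14314 in EC replicates 1 and 3. Pericyte and smooth muscle markers summed to 6.44 to 9.12 FPKM in SMF, 261 to 324 in SC and 296 to 702 in EC. No EC library had a marker of that list at 0. Immune markers had a summed FPKM of 1.01 to 3.41 in SMF, 26.3 to 31.2 in SC and 9.20 to 75.1 in EC, and erythroid markers 9.77 to 39.2 in SMF, 47.8 to 85.3 in SC and 199 to 433 in EC. Fibro-adipogenic markers summed to 38.5 to 102 in SMF, 342 to 352 in SC and 141 to 206 in EC, and Schwann cell markers to 4.47 to 7.11 in SMF, 37.9 to 41.5 in SC and 14.0 to 16.0 in EC. Of the 8 endothelial markers, Kdr and Cdh5 were lowest in that library. The part of other cell types in the Kcnj8 level was not tested. Without EC replicate 2, SC was lower than EC in Kcnj8 by a difference of -3.59 ± 0.22 (adjusted p 7.29e-05). With all libraries, that call was lost in the 2-group fit (adjusted p 0.0663) and against a log2 difference of 1 (adjusted p 0.146). The difference was -3.11 without SC replicate 1 and -2.45 without SC replicate 3, fits that each leave 1 SC library. Of the 9 members whose EC mean reached 1 FPKM, 6 were lowest in EC replicate 2 and 3 were highest there. Kcna5, the leading EC member, had a ratio of only 1.20.

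**Figure D4:**
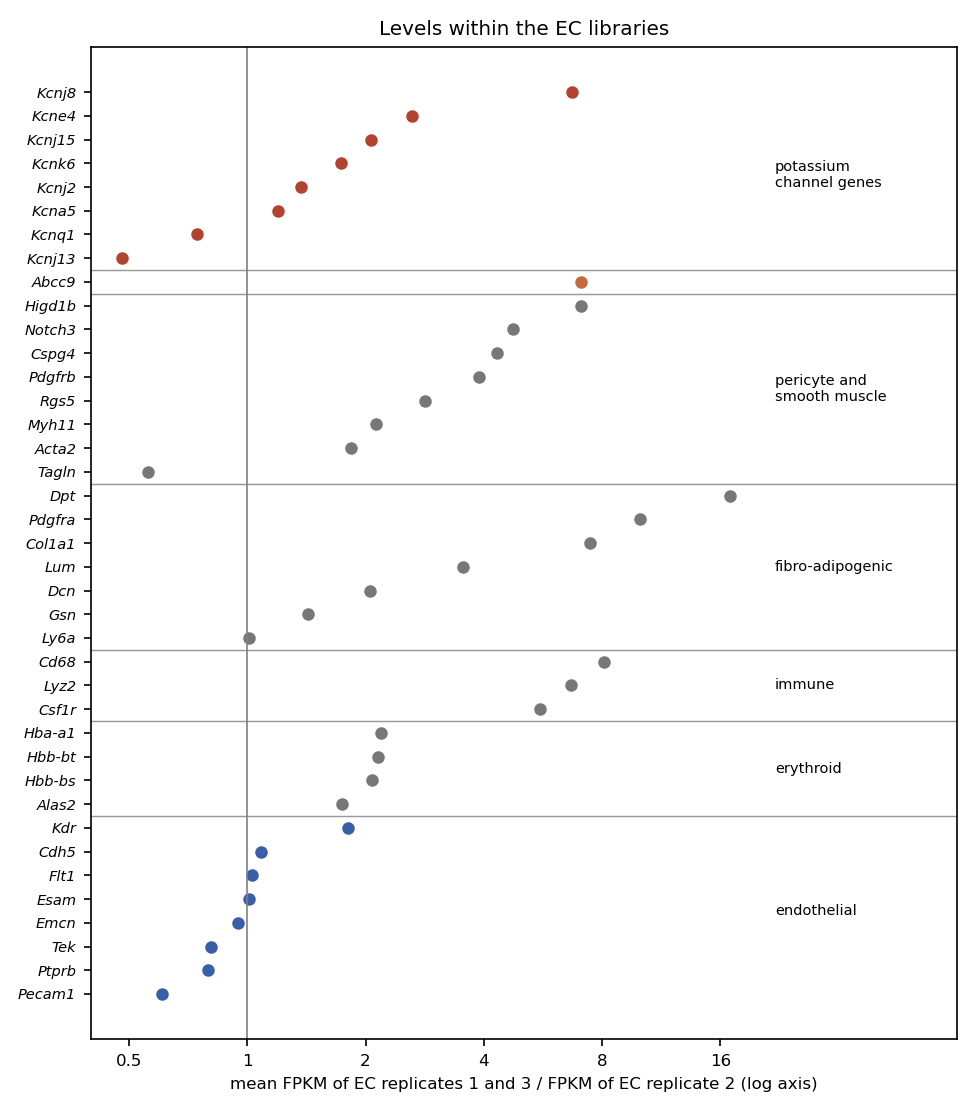
Points give the mean FPKM of EC replicates 1 and 3 divided by the FPKM of EC replicate 2, on a log axis, for 8 potassium channel genes whose EC mean reached 1 FPKM, Abcc9, and the markers of 5 other lists at that level. Kcnj8 and Abcc9, at 6.72 and 7.08, lie near the highest pericyte ratio, 7.05 for Higd1b, and near immune and fibro-adipogenic markers such as Lyz2 at 6.67 and Col1a1 at 7.43, and Kcna5 lies at 1.20 near the endothelial markers.

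Kcnj15, an inward rectifier best known from kidney epithelium, was listed at 0 in all SMF libraries, at 0.258 and 0.472 FPKM in SC and at 1.79, 0.955 and 2.16 in EC. The adjusted p of SMF against EC was 0.000682, and SC was lower than EC by a difference of -0.92 ± 0.24 (adjusted p 0.0173). That SC against EC call was lost after upper-quartile scaling (adjusted p 0.0648), in the 2-group fit (adjusted p 0.0635) and against a log2 difference of 1. Without SC replicate 1 the difference was -0.81. Listed Kcnj15 transcripts carried about 8.09 fragments in SC replicate 3, 39.7 in EC replicate 3 and 0 in the other libraries. Kcnj13, a weak rectifier known from retinal pigment epithelium, had 0, 0.268 and 0 FPKM in SMF, 1.85 and 1.67 in SC and 0.724, 1.96 and 1.16 in EC. SMF was lower than SC by a difference of -1.35 ± 0.25 (adjusted p 0.00205) and lower than EC by a difference of -1.04 ± 0.23 (adjusted p 0.00417). Kcnj13 lies within Gigyf2, a widely expressed gene that was at 2.03, 2.23 and 1.83 FPKM in SMF, 5.96 and 6.55 in SC and 6.19, 6.37 and 6.81 in EC. No fragment was assigned to the listed Kcnj13 transcript in any library, and with the use of strand not given, the reads of both genes cannot be told apart.

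SC had the highest levels of Kcnn3, Kcnt2 and Kcnk5, which were among the 4 members called higher there than in both other populations, where 17.5% of all tested genes met the same rule. Kcnn3, a small-conductance calcium-activated channel, stood at 0.0670, 0.112 and 0.0467 FPKM in SMF, 2.25 and 4.38 in SC and 0.299, 0.911 and 0.352 in EC. SC lay above every other library. The difference was -1.96 ± 0.27 for SMF against SC (adjusted p 0.000406), 1.48 ± 0.27 for SC against EC (adjusted p 0.00375) and -0.48 ± 0.24 for SMF against EC (adjusted p 0.113). SMF against EC was called in 3 of 20 alternatives. These were the TPM values (-0.87, adjusted p 0.0229), a pseudocount of 0.1 (-1.71, adjusted p 0.0155) and the 2-group fit (adjusted p 0.0464). The deposited gene value of Kcnn3 implies a length of 10451 bases, whereas the leading listed transcript is 2884 bases long. That transcript had 0.243, 0.407 and 0.169 FPKM in SMF, 8.15 and 10.6 in SC and 1.08, 2.41 and 1.28 in EC. In the TPM table Kcnn3 accordingly held 15.6% of the SC sum of all members and ranked first. Kcnt2, a sodium-activated channel, was at 0.0251, 0.0629 and 0.0428 FPKM in SMF, 2.76 and 1.84 in SC and 0.0699, 0.103 and 0.219 in EC. SMF was lower than SC by a difference of -1.65 ± 0.19 (adjusted p 0.000184), and SC was higher than EC by 1.53 ± 0.19 (adjusted p 0.00063). Kcnt1, the other sodium-activated channel, reached 0.44 FPKM at most.

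Kcnma1, the pore of the large-conductance calcium-activated channel, was shared by SMF and SC. It stood at 4.39, 3.95 and 3.76 FPKM in SMF, 7.07 and 4.25 in SC and 0.0982, 0 and 0.161 in EC. SMF was higher than EC by 2.21 ± 0.18 (adjusted p 1.99e-05) and SC was higher than EC by 2.58 ± 0.20 (adjusted p 5.1e-05). SMF and SC overlapped, with a difference of -0.37 ± 0.20 (adjusted p 0.143). That difference turned to 0.94 (adjusted p 0.0085) after median-of-ratios scaling. It was -0.68 without SC replicate 3, which leaves 1 SC library. Most of its listed signal, 64.7% to 85.9% in SMF and 85.6% and 100% in SC, lay on a transcript that starts at 23803304 of chromosome 14 on the minus strand. Among the beta subunits of this channel, Kcnmb4 was highest at 1.92 FPKM in SC replicate 3, and the gamma subunit gene Lrrc38 was listed at 6.03, 5.34 and 6.24 FPKM in SMF, 0.272 and 0 in SC and 0 in all EC libraries.

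Among the 12 tandem-pore genes, Kcnk5 and Kcnk6 were tested and had different leading populations. Kcnk5, a leak channel opened by alkaline pH, stood at 0.0722, 0.103 and 0.222 FPKM in SMF, 2.98 and 2.35 in SC and 0.962, 1.03 and 0.625 in EC. The populations did not overlap. SMF was lower than SC by a difference of -1.69 ± 0.18 (adjusted p 0.000113), and SC was higher than EC by 0.97 ± 0.18 (adjusted p 0.00436). The SMF against EC difference of -0.72 ± 0.16 (adjusted p 0.00492) was 0.13 relative to the all-gene median and lost its call after median-of-ratios scaling (-0.38). Kcnk6, a weakly conducting leak channel, was at 0, 0.0846 and 0.0909 FPKM in SMF, 0.387 and 0.523 in SC and 5.47, 3.45 and 6.48 in EC. The EC libraries lay above all others, with a difference of -2.50 ± 0.21 for SMF against EC (adjusted p 2e-05) and -2.04 ± 0.23 for SC against EC (adjusted p 0.00034). Members called highest in EC numbered 6, among them Kcna5, Kcnj8, Kcnj15, Kcnk6 and Kcnq1, where 15.2% of all tested genes met the same rule.

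Of 13 auxiliary subunit genes, Kcne4 and Kcne3 were tested. Kcne4, a single-span subunit that restrains voltage-gated pores, was at 0.320, 0.259 and 0 FPKM in SMF, 5.37 and 3.55 in SC and 5.46, 2.33 and 6.74 in EC. SC and EC overlapped and both lay above SMF, with a difference of -2.18 ± 0.36 for SMF against SC (adjusted p 0.00105), -2.22 ± 0.32 for SMF against EC (adjusted p 0.000481) and -0.03 ± 0.36 for SC against EC (adjusted p 0.96). Kcne3, a single-span partner of Kcnq1, was listed at 0 in all SMF and SC libraries and at 0, 1.71 and 1.25 FPKM in EC. No comparison called Kcne3, with an adjusted p of 0.0618 for SMF against EC and 0.129 for SC against EC. Without EC replicate 1 the adjusted p was 0.000871 for SMF against EC and 0.00333 for SC against EC.

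Promoter sequences are shown for the leading member of SMF and of EC and for the fibre-high genes Kcnj2 and Kcng4, whose windows hold the E-box CAGCTG. Of the other fibre-high genes with a window, Kcna7, Kcnc1, Kcnc4, Kcnj12 and Kcnq5 had no CAGCTG, while Kcne4 and Kcnj13, both lowest in SMF, had it. Each window is the 250 bases before the RefSeq start on GRCm38.p6, written 5′ to 3′ on the strand of the gene, with capitals for motif matches. The starts of Kcna7, Kcnj2 and Kcng4 equal those of listed transcripts, and that of Kcna5 lies 143 bases away.
Kcna7, chr7:45405710-45405959, plus strand: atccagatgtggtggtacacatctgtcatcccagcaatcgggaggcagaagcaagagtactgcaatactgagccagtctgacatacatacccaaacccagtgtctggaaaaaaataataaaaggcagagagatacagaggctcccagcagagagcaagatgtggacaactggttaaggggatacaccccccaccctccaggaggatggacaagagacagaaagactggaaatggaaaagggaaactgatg
Kcnj2, chr11:111065914-111066163, plus strand: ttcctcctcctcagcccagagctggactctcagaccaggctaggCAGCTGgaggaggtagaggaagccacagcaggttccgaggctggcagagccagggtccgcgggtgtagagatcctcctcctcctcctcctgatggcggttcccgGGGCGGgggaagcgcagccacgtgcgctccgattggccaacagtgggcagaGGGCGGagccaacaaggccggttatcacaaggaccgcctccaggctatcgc
Kcng4, chr8:119635681-119635930, minus strand: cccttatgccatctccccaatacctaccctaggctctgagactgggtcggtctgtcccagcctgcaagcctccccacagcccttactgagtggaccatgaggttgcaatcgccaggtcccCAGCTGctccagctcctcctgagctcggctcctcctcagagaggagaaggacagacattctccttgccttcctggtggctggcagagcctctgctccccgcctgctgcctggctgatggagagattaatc
Kcna5, chr6:126535556-126535805, minus strand: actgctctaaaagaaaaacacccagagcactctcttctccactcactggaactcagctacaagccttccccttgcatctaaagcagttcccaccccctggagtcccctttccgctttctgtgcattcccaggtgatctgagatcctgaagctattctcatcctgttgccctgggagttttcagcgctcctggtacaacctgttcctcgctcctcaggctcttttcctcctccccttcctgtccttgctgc
In Kcnj2 the capitals are CAGCTG, whose first base lies at -206, and GC boxes (GGGCGG on either strand) at -102 and -51, and in Kcng4 a CAGCTG at -130, with no overlap between motifs. The windows of Kcna7 and Kcna5 held none of the motifs searched. These were CAGCTG, the GC box, the MEF2 site, the ETS-type site CCGGAA and the TATA box TATAAA on both strands. Other E-boxes of the form CANNTG were not searched and are not in capitals. The same holds for the shorter ETS core GGAA, which the Kcna5 window does hold, as TTCC on the strand shown. RefSeq windows were at hand for 17 of the 22 tested members. CAGCTG was found in 4 of them and in 13.0% of all 32851 windows, a GC box in 6 of them and in 32.7% of all windows. The MEF2 site was found in 0 of the 17 members and in 2.92% of all windows. CCGGAA and the TATA box were found in 1 each and in 12.0% and 12.4% of all windows. A match is a description of letters and not a binding site.

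The 64 members that did not pass the filter were low in FPKM everywhere, with a highest value of 1.92 FPKM. They had values above 0 for 19, 18 and 24 members in the SMF libraries, for 38 and 60 in the SC libraries and for 37, 19 and 39 in the EC libraries, so SC replicate 3 stood apart with low values for nearly all of them. Over all 86 members, 35 were listed at 0 in every SMF library, 4 in both SC libraries and 13 in every EC library. The SC count rests on SC replicate 3, since 29 members were at 0 in SC replicate 1 and 6 in SC replicate 3. SC also had fewer libraries than SMF and EC. The 20 untested voltage-gated genes (among them Kcna1, Kcna2, Kcna3, Kcna4, Kcna6, Kcna10, Kcnb2, Kcnc2, Kcnd1, Kcnd2, Kcnd3, Kcnh1, Kcnh2, Kcnh3, Kcnh6, Kcnh7, Kcnh8 and Kcnq3) reached 0.901 FPKM in SC and 1.51 in EC, the last from Kcnc2 in EC replicate 2. The 9 silent subunits (Kcnf1, Kcng1, Kcng2, Kcng3, Kcns1, Kcns2, Kcns3, Kcnv1 and Kcnv2) reached 0.294 in SMF, 1.88 in SC and 0.740 in EC. Kcns3 made the SC maximum, with 1.88 and 0.97 FPKM in the SC libraries, 0 in all SMF libraries and 0, 0.27 and 0 in EC. The 9 inward rectifiers (Kcnj1, Kcnj3, Kcnj4, Kcnj5, Kcnj6, Kcnj9, Kcnj10, Kcnj14 and Kcnj16) reached 0.217 in SMF, 1.24 in SC and 0.400 in EC. The 10 tandem-pore genes (Kcnk1, Kcnk2, Kcnk3, Kcnk4, Kcnk7, Kcnk9, Kcnk10, Kcnk13, Kcnk15 and Kcnk18) reached 0.596 in SMF, 0.979 in SC and 0.774 in EC. Kcnk2, at 0.679 and 0.840 FPKM in SC replicates 1 and 3, was at 0.551 and 2.87 TPM there. By mean TPM it had rank 7 among the members in SC. The 5 calcium- and sodium-activated genes (Kcnn1, Kcnn2, Kcnn4, Kcnt1 and Kcnu1) reached 1.03 in SMF, 1.15 in SC and 0.505 in EC. Kcnn1 was the one near the filter in SMF, with 0.91, 1.03 and 0.85 FPKM there, 0.54 and 0.88 in SC and 0 in all EC libraries. The 11 auxiliary subunits (Kcnab1, Kcnab2, Kcnab3, Kcne1, Kcnip1, Kcnip3, Kcnip4, Kcnmb1, Kcnmb2, Kcnmb3 and Kcnmb4) reached 0.378 in SMF, 1.92 in SC and 0.846 in EC.

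Genes that work with potassium channels were followed in a list of 27, of which 25 were in the table and 16 were tested. Of these 16, 9 were higher and 6 lower in SMF than in SC, 9 higher and 5 lower in SMF than in EC, and 5 higher and 3 lower in SC than in EC. The shares of all tested genes were 8.57% higher and 56.5% lower, 10.8% and 55.5%, and 21.2% and 16.4% in the same 3 comparisons. The median log2 difference of these 16 was 1.46 for SMF against SC, 1.13 for SMF against EC and 0.14 for SC against EC, beside -0.93, -0.85 and 0.11 over all tested genes. These counts and medians are descriptions, because the list was chosen with earlier results of these data known. Scn4a, Clcn1 and Lrrc38 also passed the filter through SMF alone and so had to differ. Scn4a and Clcn1, the sodium and chloride channels that shape the fibre action potential, were higher in SMF than in both sorted populations. Scn4a, the fibre sodium channel, averaged 34.6 FPKM in SMF and 0.170 in SC, and was at 0, 0.121 and 0.125 in EC, with a difference of 4.93 ± 0.13 for SMF against SC (adjusted p 5.73e-07) and 5.04 ± 0.12 for SMF against EC (adjusted p 9.96e-08). Clcn1, the resting chloride channel, stood at 12.1, 13.5 and 13.7 FPKM in SMF, 0.196 and 0.0678 in SC and 0.0878, 0 and 0.0626 in EC. Lrrc38 was higher in SMF than in SC by 2.60 ± 0.16 (adjusted p 9.93e-06). Amigo1, a cell surface partner of delayed rectifiers, averaged 3.11 ± 0.344 FPKM in SMF, 5.13 ± 0.705 in SC and 1.38 ± 0.117 in EC, and its SMF against SC difference of -0.58 (adjusted p 0.0103) turned to 0.71 (adjusted p 0.00357) after median-of-ratios scaling. Kcnrg, a regulator of voltage-gated channels, was called in no comparison, with 0, 0.672 and 0 FPKM in SMF, 1.29 and 1.62 in SC and 1.28, 0 and 0 in EC.

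Genes of the sodium-potassium pump differed in level between the populations. Of its 9 tested genes, 4 were higher and 5 lower in SMF than in SC, and these numbers also held for SMF against EC, beside the shares of all genes just given. Their median log2 difference was -1.12 for SMF against SC and -0.86 for SMF against EC, close to the all-gene medians of -0.93 and -0.85. Beta subunits split between populations, with Atp1b1 at 14.8 ± 2.85 FPKM in SMF, 0.610 ± 0.509 in SC and 1.69 ± 1.03 in EC, and Atp1b3 averaging 3.17 ± 0.448 FPKM in SMF, 22.8 ± 2.73 in SC and 39.7 ± 14.2 in EC. Atp1b2 averaged 22.8 ± 1.49 FPKM in SMF, 1.62 ± 0.432 in SC and 8.06 ± 3.50 in EC. Among the small regulatory subunits, Fxyd1 stood at 38.9, 30.1 and 35.0 FPKM in SMF, 11.6 and 13.0 in SC and 1.15, 0 and 0.492 in EC. Fxyd6 averaged 2.62 ± 0.663 FPKM in SMF, 42.3 ± 3.94 in SC and 5.71 ± 2.15 in EC, and Fxyd5 0.0470 ± 0.0462 in SMF, 1.89 ± 0.315 in SC and 13.4 ± 2.63 in EC. Each population thus had a different leading regulatory subunit, Fxyd1 in SMF, Fxyd6 in SC and Fxyd5 in EC. Fxyd4 was lower in SMF than in SC (-1.12, adjusted p 0.00508) and in EC (-0.87, adjusted p 0.00938), and both calls were lost after median-of-ratios scaling (-0.49, adjusted p 0.0962, and -0.37, adjusted p 0.140). The SMF against EC difference of Fxyd6 was -0.86 (adjusted p 0.017) and became 0.26 (adjusted p 0.435) after that scaling.

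**Figure D5:**
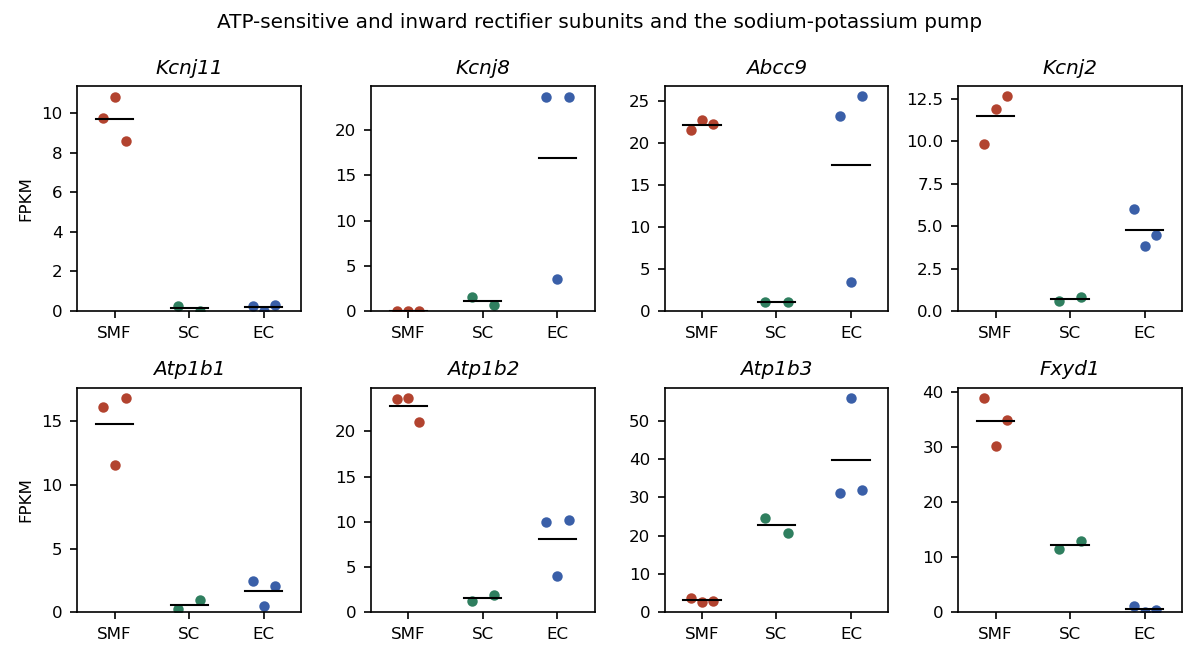
Each panel gives the FPKM of 1 gene, with a point for each SMF, SC and EC library and a line at the mean. Kcnj11 is high in SMF and Kcnj8 in 2 of 3 EC libraries, Abcc9 is high in both, and Atp1b1, Atp1b2 and Fxyd1 are highest in SMF where Atp1b3 is lowest.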

How the data were processed

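RNA of 8 libraries (SMF 3, SC 2, EC 3) was made with a stranded kit from 10 ng and read as 50 bp pairs, per the labels. The build was mm10 and the tools were HISAT2, StringTie, Trimmomatic, FastQC and bedtools, per the submitters' processing notes, with no versions or settings. The authors deposited FPKM per gene and per transcript, TPM per locus with a specificity score that was not used, and read coverage (signal) per transcript, from which fragments were counted as 100 bases each. Since FPKM depends on the whole library, abundant RNAs shift all others. A gene's deposited FPKM was inferred to equal the length-weighted sum over its transcripts divided by the length of their union. This was inferred from the values and is not stated by the authors. Such a rule lowers genes with long unused exons. The implied length was not constant for every gene, and ran from 4712 to 7064 bases between libraries for Kcnma1.

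Grouping followed the sample titles. The 16700 genes that reached 1 FPKM in 2 or more libraries were tested, two-sided, with limma 3.58.1 (R 4.3.3) on log2(FPKM + 1), a mean-variance trend and group means over all 8 libraries, with Benjamini-Hochberg adjustment over these genes. The fit was tested on simulated data. Fold changes on this scale understate the change of low genes. Differences against a population at 0 in every library are not given. Every member passing the filter and every tested partner gene is named, except a few genes that are not reported here but stay in the counts and sums. Members and lists were chosen with earlier results of these data known. Alternatives covered pseudocounts, filters, scalings, the TPM table, 2-group fits, a replicate block and leaving out each library. Positions and promoter windows are RefSeq's for GRCm38.p6, the assembly mm10 names. The labels state that 1 sample, not named, missed the RNA integrity number of 8.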

Additional observations from a re-analysis of the deposited data

How the results depend on the processing

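The median-of-ratios, upper-quartile and other settings were applied one at a time to the 22 tested genes. Of 66 gene and comparison pairs, 45 were called, and 29 of these kept their call under every alternative that gave a value, Kcnt2 for SMF against SC having none with a filter of 2 FPKM. The counts higher and lower were 9 and 6 for SMF against SC, 9 and 9 for SMF against EC and 5 and 7 for SC against EC. The shares of all genes in these comparisons are given above, and the share of kept calls over all genes was not counted. With no filter, 15 members were lower in SMF than in SC, where 29.9% of all genes were lower, and 10 higher in SC than in EC, where 10.8% were higher. Tested against a log2 difference of 1, 4 were lower in SMF than in EC, where 23.2% of all genes were lower. In that test 1 was higher in SC than in EC and 4 were lower, where 4.16% of all genes were higher and 5.31% lower. Leaving out 1 SMF or EC library gave 9 higher and 5 to 9 lower for SMF against SC. The shares of all genes were then 7.67% to 8.87% higher and 51% to 59% lower. The same step gave 9 higher and 9 to 10 lower for SMF against EC, beside 9.78% to 10.5% and 50% to 57.9% of all genes. It gave 5 higher and 7 to 8 lower for SC against EC, beside 19% to 20.5% and 14.5% to 18.1% of all genes. Counts without an SC library are not given, since they rest on 1 SC library. The only reversal was Kcnma1 for SMF against SC, at 0.94 after median-of-ratios scaling, and its cause was not tested. With replicate numbers as a block the counts were 9 and 6, 9 and 9, and 5 and 7, unchanged. The shares of all genes were then 8.35% higher and 53.2% lower, 10.7% and 55.3%, and 18.2% and 14.8%. Deviations from the group mean correlated at -0.058 to 0.091 between same-numbered libraries, and no EC library correlated best with the SMF library of its own number. EC replicates 1 and 3 correlated at 0.091 and 0.038 with the SC library of their own number. Deviations of 2 SC libraries from their mean are exact opposites. The values with the other SC library (-0.091 and -0.038) were therefore fixed and add nothing. SC replicates 1 and 3 were at -0.049 and -0.058 with the SMF libraries of their numbers. No label says that the numbers mark animals, so they were not taken as pairs. Values near 1 fragment per kb, between 0.172 and 0.360 FPKM, cannot be ranked.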

Other observations

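The TPM table holds 6 further loci of the family that the gene table does not list. Kcnh4 was at 0.0574 TPM in EC replicate 3 and at 0 in the other libraries, and Kcnk16, Kcnip2, Kcnh5, Kcne2 and Kcnk12 were at 0 in all 8.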
